A study of Mus musculus with 26 samples.

Results

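The effect of cold on brown adipose tissue during fasting was examined in mice with both Klf15 alleles floxed and no Cre, called FF here. The compared libraries were the 3 labelled cold plus fasting and the 3 labelled fasting at room temperature (RT), 6 of the 26 RNA sequencing libraries of the series. Libraries were assigned to these groups by their labels alone, but the comparison itself was chosen with earlier results of these data known. Of 48432 genes in the deposited table, 11880 reached 1 FPKM (fragments scaled by transcript length and by mapped fragments) in at least 3 of these 6 libraries and were tested. Other groups used beside them were Klf15 knockout mice (BKO), which carry the same floxed alleles with a Ucp1-Cre transgene, in cold plus fasting (3 libraries) and in RT fasting (3 libraries), and FF mice in cold (4 libraries) and fed at RT (3 libraries), neither labelled as fasted. Mice of all groups were 2 months old, and brown adipose tissue was taken from each. The Ucp1 promoter drives Cre in brown adipocytes, so other cell types of the BKO tissue keep Klf15. The labels give neither the temperature of the cold nor the duration of cold or fasting.

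Brown adipose tissue burns fatty acids and glucose to make heat. Noradrenaline, released in the cold, acts on beta adrenergic receptors, raises cAMP and so activates lipolysis and the uncoupling protein UCP1. The same tissue builds fatty acids from glucose under the control of insulin, SREBP1 and ChREBP. Fasting lowers insulin and raises glucocorticoids, and the transcription factors FOXO and the glucocorticoid receptor then raise genes of protein breakdown and of glucose sparing.

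Library identity limits this comparison. The 3 cold plus fasting libraries carry sample numbers of the second of 2 runs of numbers in the labels (15 to 32), and the 3 RT fasting libraries carry numbers of the first run (1 to 8). Cold and number run cannot be told apart within these 6 libraries. The counts of the main gene lists are therefore set beside a fit with number run as a covariate. It draws on the FF cold and FF RT fed groups, which hold both runs. In these groups only FF cold replicate 1 and FF RT fed replicate 3 carry second-run numbers, so the run term rests on those libraries. The counts are also set beside the same contrast in BKO mice, whose 6 libraries all belong to the second run. Within that run the numbers follow the groups, with 21, 24 and 25 in cold plus fasting and 26, 27 and 28 in RT fasting. Cold and number order cannot be told apart there either. FPKM summed over genes ranged from 447089 to 462679 in cold plus fasting and from 388107 to 422561 in RT fasting. Pearson correlations of log2 values across genes ranged from 0.9872 to 0.9896 within cold plus fasting, from 0.9785 to 0.9825 within RT fasting, and from 0.9154 to 0.9421 between the groups. Each library title carries a number of its own that the labels do not explain. In FF and in BKO mice, the ranges of these numbers do not overlap between cold plus fasting and RT fasting. The labels do not state that libraries of a group came from separate animals, so p-values measure spread between libraries. That spread was pooled within the 8 groups of all 26 libraries. Read counts were not used here, so depth is unknown.

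Tissue identity was checked with 12 brown adipocyte markers. Their summed FPKM was 19200, 18200 and 17100 in cold plus fasting and 10400, 10600 and 11400 in RT fasting, and none was at 0 in all 6 libraries. Ucp1 made up much of both sums. Klf15, the gene deleted in BKO mice, had 2.86, 3.34 and 3.82 FPKM in BKO cold plus fasting and 8.92, 7.94 and 8.82 FPKM in BKO RT fasting. These lay below every FF library of the same treatment, where it had 15.4 to 21.7 FPKM in cold plus fasting and 18.8 to 29.1 FPKM in RT fasting.

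The comparison divided the transcriptome almost evenly. Of the 11880 genes, 6406 (53.9%) passed an adjusted p of 0.05 (limma on log2(FPKM + 1), Benjamini-Hochberg), 3192 (26.9%) of them higher in cold plus fasting and 3214 (27.1%) lower. The median log2 difference over all genes was -0.0098. The 3 and 3 libraries did not overlap for 6909 genes (58.2%). A call by itself was therefore common, and the size of a difference or the share of a list that moved one way must be read against these percentages. Passing and differing by at least 2-fold on this scale was less common, with 597 genes (5.03%) higher and 447 (3.76%) lower. With number run as a covariate 3662 genes (30.8%) passed, 3606 (30.4% of all genes) of them called in the same direction without it. With libraries scaled to equal FPKM sums, 2361 genes were higher and 4248 lower, around a median of -0.128, and differences near that size change direction with the scaling.

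Each group was also set beside the FF group that shared its temperature but was not labelled as fasted. Between FF cold plus fasting and FF cold, 0 of 11879 genes passed in limma, with or without the run covariate, and 337 (2.84%) had an unadjusted p under 0.05. Between FF RT fasting and FF RT fed, 4626 of 11880 genes (38.9%) passed, 4216 (35.5%) with the run covariate. Slc7a8, a neutral amino acid transporter, averaged 1.26 ± 0.60 FPKM in FF cold plus fasting, 71.5 ± 30.8 in FF RT fasting, 0.807 ± 0.180 in FF cold and 1.11 ± 0.50 in FF RT fed (SD, n = 3, 3, 4 and 3). For this gene RT fasting was the group that stood apart. A missed threshold does not show that cold plus fasting and cold were alike, and whether the mice differed in food intake was not measured.

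**Figure D1:**
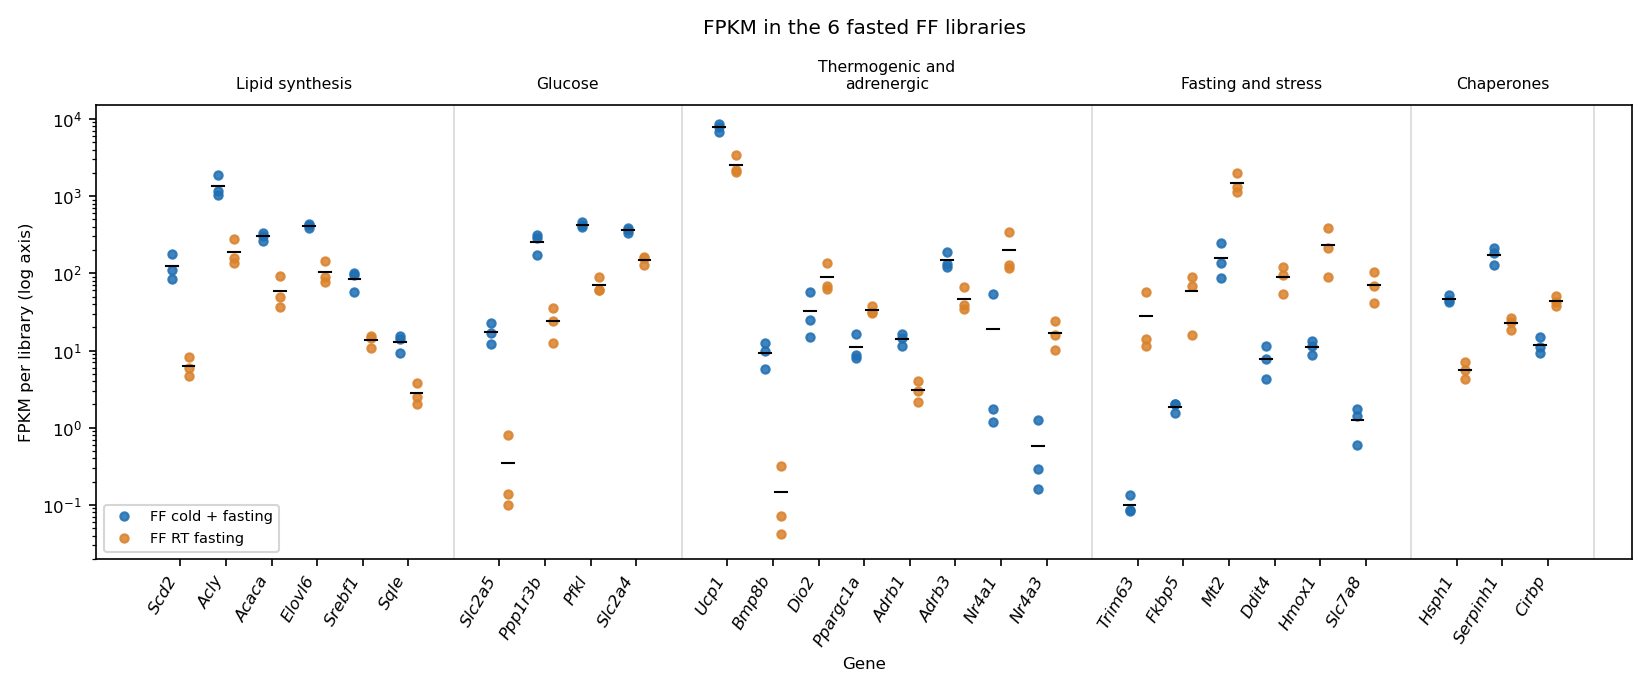
FPKM of 27 genes in each of the 6 fasted FF libraries, on a log axis, grouped by role. Blue points are cold plus fasting and orange points are RT fasting, with a black line at each mean. The groups do not overlap for any gene shown, and the lipid and glucose genes lie higher in cold plus fasting, while Trim63, Fkbp5, Mt2, Ddit4, Hmox1 and Slc7a8 lie lower.

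Stretches of promoter are shown for 4 genes described below, with the letters of a known binding motif in capitals. Sequences are RefSeq's on GRCm38.p6, from 250 bases before to 50 after a transcript start, 5′ to 3′. Hmgcs1 (sterol synthesis, motif CACCCCAC of SREBP) is chr13:119690101-119690400 on the plus strand, Hsph1 (chaperone, motif GAANNTTC of heat shock factor) chr5:149636287-149636586 on the minus strand, Nr4a1 (cAMP-responsive, motif TGACG of CREB) chr15:101266596-101266895 on the plus strand, and Trim63 (atrophy, motif TGTTTAC of forkhead factors) chr4:134314870-134315169 on the plus strand.
Hmgcs1: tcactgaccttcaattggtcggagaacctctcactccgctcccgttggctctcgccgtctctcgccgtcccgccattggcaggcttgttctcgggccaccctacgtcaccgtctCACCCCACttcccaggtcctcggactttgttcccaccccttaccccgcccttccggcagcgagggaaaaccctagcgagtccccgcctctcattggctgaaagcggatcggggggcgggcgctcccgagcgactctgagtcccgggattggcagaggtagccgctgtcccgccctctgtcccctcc
Hsph1: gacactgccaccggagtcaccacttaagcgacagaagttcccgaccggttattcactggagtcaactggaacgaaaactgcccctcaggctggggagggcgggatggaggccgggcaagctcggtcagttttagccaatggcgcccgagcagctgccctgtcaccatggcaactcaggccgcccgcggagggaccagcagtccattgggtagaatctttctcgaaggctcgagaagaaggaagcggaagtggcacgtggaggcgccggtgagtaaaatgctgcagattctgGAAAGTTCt
Nr4a1: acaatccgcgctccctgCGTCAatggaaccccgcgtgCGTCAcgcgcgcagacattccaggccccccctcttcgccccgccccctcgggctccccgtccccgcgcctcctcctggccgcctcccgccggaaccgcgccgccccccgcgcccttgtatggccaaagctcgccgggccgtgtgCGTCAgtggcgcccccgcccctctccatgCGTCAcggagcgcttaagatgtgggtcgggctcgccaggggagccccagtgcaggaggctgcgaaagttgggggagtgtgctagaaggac
Trim63: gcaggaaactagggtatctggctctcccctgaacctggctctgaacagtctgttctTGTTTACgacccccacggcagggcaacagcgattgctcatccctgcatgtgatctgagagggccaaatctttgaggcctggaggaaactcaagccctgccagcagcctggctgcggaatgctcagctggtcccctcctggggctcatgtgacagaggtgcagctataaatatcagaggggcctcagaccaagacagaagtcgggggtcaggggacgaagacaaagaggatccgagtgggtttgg

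Both strands were searched. Each window was marked only for the motif named with its gene, so matches to the other motifs are not in capitals. Of all 32851 promoters in the RefSeq table, CACCCCAC was found in 2.87%, GAANNTTC in 7.86%, TGACG in 20.8% and TGTTTAC in 3.65%. Among the tested members of the heat shock and cold shock list with a promoter, GAANNTTC was found in 7 of 9 genes (77.8%), against 9.04% of all 27025 genes with a promoter. These were Bag3, Hspa1a, Hspa1b, Hspb1, Hspd1, Hspe1 and Hsph1. TGACG was found in 7 of 11 immediate-early genes (63.6%), against 23% of all genes, and the Nr4a1 window held it 4 times. TGTTTAC was found in 3 of 20 members of the FOXO and atrophy list (15%), against 4.05% of all genes. CACCCCAC was found in 1 of 14 sterol genes, against 3.30% of all genes. A match says only that the letters are present.

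Genes of fatty acid synthesis were higher in cold plus fasting nearly throughout. Of 22 genes of the lipogenic list in the table, 20 could be tested. Of these, 18 rose and none fell, with a median log2 difference of 1.97 against -0.0098 for all genes. With the run covariate 17 rose, and in BKO mice 18 rose. The count was 18 without any one of the 6 libraries. The exceptions were the desaturases Fads1 and Fads2, with log2 differences of -0.13 and 0.07.

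Scd2, a stearoyl-CoA desaturase that makes monounsaturated fatty acids (chr19:44293674-44306864), had 110, 85.3 and 176 FPKM in cold plus fasting and 8.21, 5.86 and 4.65 FPKM in RT fasting. Its lowest cold plus fasting library was above its highest RT fasting library, and the log2 difference was 4.07 (SE 0.33, adjusted p = 1.88e-09, limma). Acly, which makes cytosolic acetyl-CoA from citrate, had 1040, 1150 and 1870 FPKM in cold plus fasting and 278, 158 and 138 FPKM in RT fasting, a log2 difference of 2.84 (SE 0.30). Acaca, the acetyl-CoA carboxylase that commits carbon to fatty acids, had 263, 300 and 337 FPKM against 92.2, 49.7 and 36.9 FPKM in RT fasting (log2 2.41, SE 0.23). Neither gene's groups overlapped. The elongase Elovl6 (log2 2.02), the NADPH-forming enzymes Me1 (2.40) and Pgd (2.57), and the citrate carrier Slc25a1 (1.86) rose as well.

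Regulators of the pathway rose with its enzymes. Srebf1, which encodes SREBP1, had 96.2, 57.6 and 101 FPKM in cold plus fasting and 15.2, 14.5 and 10.8 FPKM in RT fasting (log2 2.53, SE 0.20, adjusted p = 8.42e-10, limma). Mlxipl, which encodes ChREBP, had 167, 170 and 210 FPKM in cold plus fasting and 66.8, 46.5 and 62.8 FPKM in RT fasting (log2 1.63, SE 0.12). Thrsp, a lipogenic protein that responds to thyroid hormone and carbohydrate, rose by 2.52, and Pnpla3, a lipase and SREBP1 target, by 2.29. Acacb, the carboxylase isoform at mitochondria whose malonyl-CoA restrains fatty acid entry, rose less, by 0.70 (SE 0.14). Fasn, Gpd1 and Scd1 could not be compared. The table lists Fasn at 0 in all 3 cold plus fasting libraries and at 1710, 879 and 1110 FPKM in RT fasting. Gpd1, which makes glycerol phosphate, is listed at 0 in the same 3 libraries and at 1660, 1240 and 1270 FPKM in RT fasting, and Scd1 at 0 in all 6. Zeros in such abundant genes were treated as failed estimates.

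Sterol genes rose with the fatty acid genes. Of 22 genes for cholesterol synthesis and uptake in the table, 21 were tested, 20 rose and 1 fell, with a median log2 difference of 1.55. In BKO mice the counts were again 20 and 1, and with the run covariate 17 and 1. Insig1, a sterol-sensing retention protein and SREBP target, had 186, 137 and 219 FPKM in cold plus fasting and 33.8, 19.7 and 42.9 FPKM in RT fasting (log2 2.50, SE 0.26, adjusted p = 5.32e-08, limma). The groups did not overlap. The synthase gene Fdps rose by 2.20 and Hmgcs1, whose promoter is shown above, by 1.65.

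Sterol genes did not all move alike. The squalene epoxidase gene Sqle rose by 1.88 (SE 0.28), while Fdft1, the squalene synthase gene one step before it, had 37.8, 35.7 and 33.2 FPKM in cold plus fasting and 162, 100 and 156 FPKM in RT fasting and fell by 1.91 (SE 0.20, adjusted p = 7.37e-08, limma). Fdft1 overlaps Ctsb on the opposite strand, and reads of the 2 genes cannot be told apart without strand.

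Glucose genes formed another group that was higher in cold plus fasting. Of 27 genes for glucose uptake and glycolysis in the table, 24 were tested, 19 rose and 2 fell, around a median of 1.03, and the counts in BKO mice were also 19 and 2. The run covariate left 15 rises and 2 falls. Among the enzymes of the list the phosphofructokinase genes Pfkl and Pfkp rose most, while the muscle isoform gene Pfkm rose by 0.30. Pfkl had 421, 399 and 463 FPKM in cold plus fasting and 90.2, 60.7 and 60.5 FPKM in RT fasting (log2 2.61, SE 0.13, adjusted p = 3.79e-12, limma). Pfkp rose by 2.27, the pyruvate kinase gene Pkm by 1.75 and the hexokinase gene Hk1 by 1.54. Hk2, the insulin-responsive hexokinase gene, rose by 1.04, a call that was lost with the run covariate (log2 0.61, adjusted p = 0.0985, limma).

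Among glucose and fructose carriers the isoforms parted. Slc2a5, the fructose carrier GLUT5 (chr4:150119283-150144169), had 12.1, 17 and 22.8 FPKM in cold plus fasting and 0.801, 0.14 and 0.101 FPKM in RT fasting (log2 3.76, SE 0.29, adjusted p = 8.68e-10, limma). Slc2a4, the insulin-responsive carrier GLUT4, had 364, 328 and 389 FPKM in cold plus fasting and 165, 128 and 159 FPKM in RT fasting (log2 1.26, SE 0.11). Slc2a1 and Slc2a3, which encode the basal carriers GLUT1 and GLUT3, fell by 0.57 and 0.86, at means under 5 FPKM in both groups.

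Glycogen genes rose at several steps. Of 20 tested genes 15 rose and 3 fell, with a median of 0.68, against 13 and 2 with the run covariate and 12 and 3 in BKO mice. Ppp1r3b, a subunit that directs protein phosphatase 1 to glycogen, had 309, 171 and 287 FPKM in cold plus fasting and 35.1, 23.9 and 12.5 FPKM in RT fasting (log2 3.43, SE 0.32, adjusted p = 1.08e-08, limma). Its relative Ppp1r3c rose by 2.51, the glycogen synthase gene Gys2 by 1.92 and the phosphorylase gene Pygl by 1.33. Genes for both synthesis and breakdown of glycogen were thus among those that rose. Of 31 tested genes of pyruvate dehydrogenase and the TCA cycle, 22 rose and 2 fell around a median of 0.39, against 19 and 0 with the run covariate and 22 and 2 in BKO mice. Pdhb, a pyruvate dehydrogenase subunit, rose by 1.31 and the kinase gene Pdk1 by 1.25. Pdk4, the fasting-induced kinase gene that restrains pyruvate oxidation, had 600, 1270 and 711 FPKM in cold plus fasting and 1480, 1140 and 1360 FPKM in RT fasting. These overlapped, and its fall of 0.69 lost its call with the run covariate (log2 -0.33, adjusted p = 0.416, limma) and without cold plus fasting replicate 1.

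**Figure D2:**
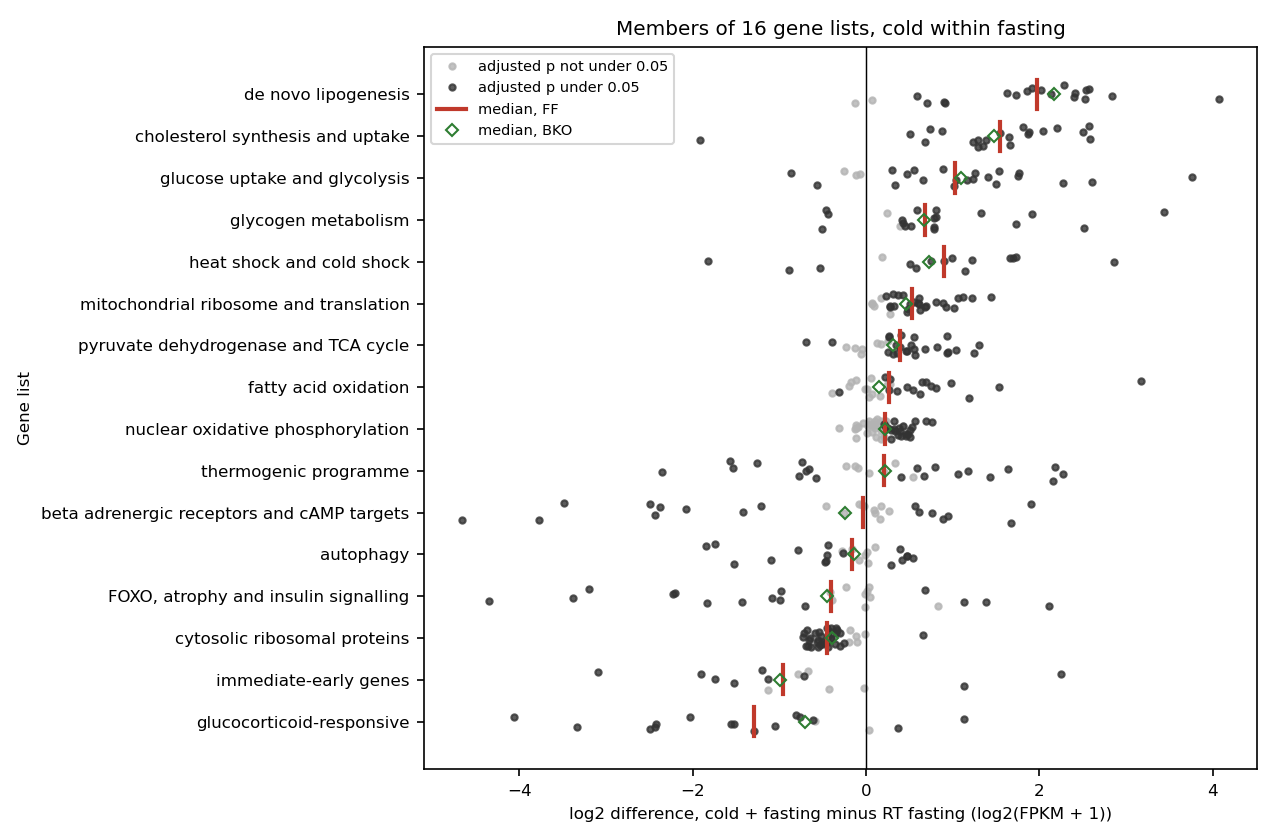
Log2 difference of each tested member of 16 gene lists, cold plus fasting minus RT fasting in FF mice. Dark points passed an adjusted p of 0.05 and grey points did not, red lines are list medians in FF mice and green diamonds are medians of the same contrast in BKO mice. Lipid and glucose lists lie to the right (median 1.97 for lipogenesis), glucocorticoid-responsive and immediate-early genes to the left (medians -1.29 and -0.96).

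Genes of fatty acid handling gave a mixed picture. In the oxidation list 15 of 28 tested genes rose and 1 fell, with a median of 0.27, and 57.1% were called, against 53.9% of all genes. With libraries scaled to equal FPKM sums 13 rose and 3 fell, with the run covariate 12 and 0, and in BKO mice 10 and 6. Acsl5, which activates long-chain fatty acids, had 494, 481 and 510 FPKM in cold plus fasting and 68.3, 67.6 and 34.2 FPKM in RT fasting (log2 3.17, SE 0.22, adjusted p = 1.53e-10, limma). Cpt2, the inner membrane carnitine transferase gene, rose by 1.54 and Hadha, of the trifunctional protein, by 1.19. Cpt1b, the outer membrane transferase gene at the step that malonyl-CoA controls, had 476, 412 and 389 FPKM in cold plus fasting and 422, 384 and 334 FPKM in RT fasting and did not pass (log2 0.16, SE 0.11, adjusted p = 0.197, limma). Acot11, an acyl-CoA thioesterase gene also known as Them1, had 302, 316 and 402 FPKM in cold plus fasting and 41.6, 27.2 and 19.9 FPKM in RT fasting (log2 3.53, SE 0.26).

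Lipid droplet genes moved in both directions. In the lipolysis and droplet list 9 of 17 tested genes rose and 3 fell, against 5 and 2 with the run covariate and 3 and 6 in BKO mice. Plin1, the coat protein that gates lipase access, had 591, 612 and 636 FPKM in cold plus fasting and 254, 351 and 158 FPKM in RT fasting (log2 1.34, SE 0.17, adjusted p = 6.94e-07, limma). Mgll, the monoglyceride lipase gene, rose by 1.79 and the coat gene Plin2 by 1.19, while Plin4 fell by 1.06 and the droplet fusion gene Cidec by 0.63. Pnpla2, which encodes the first lipase of the pathway (ATGL), had 1720, 1580 and 1620 FPKM in cold plus fasting and 1660, 1360 and 1820 FPKM in RT fasting (log2 0.03, SE 0.10, adjusted p = 0.805, limma).

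Genes for taking up lipoprotein lipid moved in both directions. In that list 4 of 14 tested genes rose and 5 fell, against 3 and 4 with the run covariate and 3 and 6 in BKO mice. Lpl, the lipoprotein lipase gene, had 1130, 1070 and 756 FPKM in cold plus fasting and 1390, 1710 and 1470 FPKM in RT fasting (log2 -0.64, SE 0.15, adjusted p = 0.00124, limma). Apoe, a lipoprotein ligand, had 184, 166 and 167 FPKM against 931, 935 and 941 FPKM in RT fasting (log2 -2.44, SE 0.18). Scarb1, a lipoprotein receptor gene, fell by 1.15. Angptl4, an inhibitor of lipoprotein lipase listed here with the secreted factors, fell by 1.29, but by 0.54 with the run covariate (adjusted p = 0.328, limma). Vldlr, another lipoprotein receptor gene, did not pass (log2 -0.36, adjusted p = 0.0619, limma), but passed with scaling to equal sums (log2 -0.50, adjusted p = 0.0113).

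Triglyceride synthesis and ketone genes were also divided. Agpat2, an acyltransferase gene, had 1660, 1430 and 1920 FPKM in cold plus fasting and 283, 494 and 281 FPKM in RT fasting (log2 2.28, SE 0.21, adjusted p = 1.29e-08, limma). Pck1, which supplies glycerol phosphate through glyceroneogenesis, had 949, 1270 and 820 FPKM in cold plus fasting and 3350, 2290 and 3160 FPKM in RT fasting (log2 -1.54, SE 0.18). Over the triglyceride synthesis list 4 of 12 tested genes rose and 4 fell, with the same counts with the run covariate and in BKO mice. Of 6 tested ketone body genes 3 rose and 3 fell, and Bdh1, a ketone body dehydrogenase gene, rose by 2.08. The glycerol kinase gene Gk, listed with the thermogenic genes, had 94.6, 72.2 and 31.9 FPKM in cold plus fasting and 33.3, 82.8 and 25.3 FPKM in RT fasting (log2 0.54, adjusted p = 0.302, limma). Without RT fasting replicate 2 the difference was 1.03 and passed (adjusted p = 0.0497).

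The thermogenic list did not move as one. Of 27 tested genes 11 rose and 9 fell, around a median of 0.21, and under quantile normalization 10 rose and 12 fell. The counts were 7 and 7 with the run covariate and 7 and 6 in BKO mice. Ucp1, which uncouples respiration, had 8700, 7860 and 6690 FPKM in cold plus fasting and 2080, 3360 and 2180 FPKM in RT fasting. The groups did not overlap, and the log2 difference was 1.64 (SE 0.20, adjusted p = 4.14e-06, limma). With the run covariate it was 0.89 (adjusted p = 0.0359), and in BKO mice 1.31 (adjusted p = 6.06e-05). Ucp1 could not be followed into FF cold, where it is listed at 0 in all 4 libraries, a failed estimate. The run term for Ucp1 therefore rests on FF RT fed alone, where only replicate 3 is of the second run.

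Genes near Ucp1 in function followed it in part. Elovl3, the cold-induced elongase gene, had 539, 451 and 473 FPKM in cold plus fasting and 62.4, 221 and 88.0 FPKM in RT fasting (log2 2.18, SE 0.43, adjusted p = 0.000182, limma), a call lost with the run covariate (log2 1.44, adjusted p = 0.0648). Cpn2 and Otop1, markers of brown fat, rose by 2.27 and 2.16. Letmd1, needed for brown fat mitochondria, rose by 1.42 and the nuclear receptor gene Esrra by 1.18. Cidea, a droplet protein typical of brown adipocytes, had 1850, 1600 and 1890 FPKM in cold plus fasting and 1860, 1660 and 2170 FPKM in RT fasting and did not pass (log2 -0.09, adjusted p = 0.486), but was called lower with quantile normalization (log2 -0.19, adjusted p = 0.00588) and with equal FPKM sums (log2 -0.23, adjusted p = 0.0185). Prdm16, a determinant of brown fat identity, had a log2 difference of 0.21 (adjusted p = 0.573).

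Some thermogenic regulators were lower in cold plus fasting. Dio2, which activates thyroid hormone within the tissue, had 25.1, 58.0 and 15.1 FPKM in cold plus fasting and 68.8, 137 and 62.0 FPKM in RT fasting (log2 -1.54, SE 0.40, adjusted p = 0.00247, limma). Ppargc1a, the coactivator of mitochondrial biogenesis, had 8.01, 16.4 and 8.84 FPKM in cold plus fasting and 38.2, 31.7 and 30.3 FPKM in RT fasting (log2 -1.57, SE 0.36). Neither passed in BKO mice, where the log2 differences were -0.55 for Dio2 (adjusted p = 0.261, limma) and -0.47 for Ppargc1a (adjusted p = 0.294), and the FF and BKO responses did not pass a test of their difference for either gene (adjusted p = 0.522 and 0.385). Irf4, a fasting-induced partner of PGC-1α, had 4.77, 5.61 and 3.79 FPKM against 34.7, 19.4 and 32.5 FPKM in RT fasting and fell by 2.35. Ppara, the fatty acid receptor of fasting, fell by 1.26.

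The receptor genes Adrb3 and Adrb1 were higher in cold plus fasting. Adrb3, the main receptor of adipocytes, had 122, 191 and 134 FPKM in cold plus fasting and 35, 67 and 39 FPKM in RT fasting (log2 1.68, SE 0.30, adjusted p = 6.13e-05, limma). Adrb1 had 16.5, 11.3 and 14.5 FPKM in cold plus fasting and 4.05, 3.00 and 2.17 FPKM in RT fasting (log2 1.90, SE 0.35), a call lost with the run covariate (log2 1.03, adjusted p = 0.0853, limma). Neither passed in BKO mice, where the log2 differences were 0.40 for Adrb3 and 0.36 for Adrb1 (adjusted p = 0.276 and 0.419, limma). The FF and BKO responses did not pass a test of their difference for either gene (log2 1.28 and 1.54, adjusted p = 0.194 and 0.183). Across the receptor and cAMP list 7 of 26 tested genes rose and 9 fell, against 5 and 9 with the run covariate and 3 and 9 in BKO mice.

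Genes that respond quickly to cAMP were among the largest falls. Nr4a1, an orphan nuclear receptor gene induced within minutes of adrenergic stimulation, had 1.18, 53.5 and 1.75 FPKM in cold plus fasting and 348, 128 and 117 FPKM in RT fasting (log2 -4.66, SE 1.02, adjusted p = 0.000545, limma). Cold plus fasting replicate 2 was far above its group for Nr4a1. It was also the highest of its group, by less, for Rgs2, which encodes a brake on G proteins (17.4, 62.2 and 37.8 FPKM against 179, 216 and 161 FPKM in RT fasting), and for the clock gene Per1 (2.91, 10.4 and 4.57 FPKM against 44.9, 27.4 and 28.8 FPKM). Even that library lay below all RT fasting libraries for each of them. Nr4a3 fell by 3.48, Fosb by 3.10, Rgs2 by 2.38, Per1 by 2.43, Gadd45g by 2.07 and the cAMP phosphodiesterase gene Pde4d by 1.42. Mfsd2a, a lysolipid carrier gene induced by fasting and adrenergic signals, had 2.12, 2.66 and 0.342 FPKM in cold plus fasting and 38.2, 25.1 and 37.1 FPKM in RT fasting (log2 -3.77, SE 0.66). Of 14 tested immediate-early genes 7 fell and 2 (Ier3 and Dusp1) rose, with a median of -0.96, against 6 falls and no rise with the run covariate and 8 falls and no rise in BKO mice.

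Secreted factors of brown fat were mostly higher. Of 17 tested genes 9 rose and 3 fell; with the run covariate 5 rose and none fell, and in BKO mice 6 rose and 2 fell. Bmp8b, a thermogenic signal, had 9.84, 12.5 and 5.78 FPKM in cold plus fasting and 0.321, 0.0717 and 0.0422 FPKM in RT fasting (log2 3.13, SE 0.33, adjusted p = 7.29e-08, limma). Angptl8, which inhibits lipoprotein lipase after feeding, had 180, 36.2 and 82.7 FPKM in cold plus fasting and 12, 11.4 and 8.48 FPKM in RT fasting (log2 2.84, SE 0.43). Its 3 cold plus fasting libraries varied widely, yet all lay above the RT fasting libraries. Fndc5, the precursor of irisin, rose by 2.19, and Edn1, which encodes endothelin 1, by 1.26.

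Among 9 tested adipokines 3 rose and 2 fell, against 2 and 2 with the run covariate and 4 and 2 in BKO mice. Lep, which encodes leptin, had 3.62, 3.55 and 13.6 FPKM in cold plus fasting and 1.06, 0.0116 and 0.0744 FPKM in RT fasting (log2 2.37, SE 0.39, adjusted p = 2.53e-05, limma), with replicate 3 well above the other two. Apln, which encodes apelin, had 6.69, 7.56 and 6.05 FPKM in cold plus fasting and 0.366, 0.479 and 0.457 FPKM in RT fasting (log2 2.43, SE 0.18). Cfd, which encodes adipsin, had 400, 348 and 355 FPKM against 1170, 1160 and 1060 FPKM in RT fasting (log2 -1.62, SE 0.19). Adipoq, which encodes adiponectin, did not pass (log2 -0.11, adjusted p = 0.434), but passed under quantile normalization (log2 -0.31, adjusted p = 0.0187). Fgf21, a fasting and cold hormone gene, was listed at 1.95, 0.633 and 1.59 FPKM in cold plus fasting and at 0.119, 0.206 and 0.231 FPKM in RT fasting and was too low to test.

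Several genes of protein breakdown and insulin withdrawal were lower in cold plus fasting. In the FOXO, atrophy and insulin list 11 of 24 tested genes fell and 4 rose, with a median of -0.40. With the run covariate 7 fell and 2 rose, and in BKO mice 12 fell and 2 rose. The insulin receptor substrate gene Irs3 rose by 2.11. Trim63, the muscle ubiquitin ligase MuRF1, had 0.0848, 0.133 and 0.0828 FPKM in cold plus fasting and 14.2, 11.6 and 57.8 FPKM in RT fasting (log2 -4.35, SE 0.38, adjusted p = 5.92e-09, limma). Ddit4, an mTORC1 inhibitor, had 4.29, 11.4 and 7.69 FPKM in cold plus fasting and 54.7, 94.8 and 120 FPKM in RT fasting (log2 -3.38, SE 0.45). The ubiquitin ligase gene Fbxo31 fell by 3.20, the cell cycle inhibitor gene Cdkn1a by 1.84 and Foxo3 by 1.44. Fbxo32, which encodes the other muscle atrophy ligase, had 1.69, 3.06 and 1.66 FPKM in cold plus fasting and 3.26, 2.31 and 3.65 FPKM in RT fasting and did not pass (log2 -0.39, adjusted p = 0.0575, limma). It passed with a pseudocount of 0.1 (adjusted p = 0.0495), with equal FPKM sums (log2 -0.49, adjusted p = 0.0175), without cold plus fasting replicate 2 (log2 -0.59, adjusted p = 0.00629) and without RT fasting replicate 2 (log2 -0.53, adjusted p = 0.0185).

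The calls of other members of that list depended on the setting. Irs2, the insulin receptor substrate induced by fasting, fell by 2.20 (adjusted p = 0.0083, limma). The log2 difference was -2.56 with the run covariate (adjusted p = 0.0505) and -1.60 without RT fasting replicate 1 (adjusted p = 0.0665), and neither passed. Foxo1 fell by 1.08, but its log2 difference of -0.65 with the run covariate did not pass (adjusted p = 0.168). Klf15, the floxed gene and itself a target of glucocorticoids, had 21.7, 16.4 and 15.4 FPKM in cold plus fasting and 24.5, 18.8 and 29.1 FPKM in RT fasting (log2 -0.41, SE 0.19, adjusted p = 0.0697). It passed with scaling to equal sums (log2 -0.55, adjusted p = 0.0131) and without cold plus fasting replicate 1 or RT fasting replicate 2.

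Glucocorticoid-responsive genes fell as a list. Of 17 tested genes 13 fell and 2 rose, with a median of -1.29; with the run covariate 12 fell and 1 rose, and in BKO mice 10 fell and none rose. Fkbp5, a chaperone gene with strong glucocorticoid response elements, had 2.04, 2.00 and 1.55 FPKM in cold plus fasting and 69.1, 16 and 89.6 FPKM in RT fasting (log2 -4.06, SE 0.48, adjusted p = 3.51e-07, limma). The metallothionein gene Mt2 had 245, 136 and 86.8 FPKM in cold plus fasting and 1310, 1140 and 2020 FPKM in RT fasting (log2 -3.33, SE 0.43), and its neighbour Mt1 fell by 2.43. Tsc22d3, which encodes GILZ, fell by 2.03 and the sulfotransferase gene Sult1a1 by 2.49. The 2 genes of the list that rose were the phosphatase gene Dusp1 and the transglutaminase gene Tgm2.

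Autophagy genes moved both ways. In that list 10 of 23 tested genes fell and 6 rose, against 7 and 1 with the run covariate and 7 and 5 in BKO mice. Gabarapl1, which encodes an autophagosome protein, had 171, 145 and 98.5 FPKM in cold plus fasting and 416, 409 and 688 FPKM in RT fasting (log2 -1.85, SE 0.19, adjusted p = 6.87e-08, limma). The mitophagy receptor gene Bnip3 fell by 1.75 and the cargo receptor gene Sqstm1 by 1.53. Some of the largest single falls were outside that list. Hmox1, the heme-degrading enzyme gene, had 11.5, 13.2 and 8.81 FPKM in cold plus fasting and 88.6, 215 and 385 FPKM in RT fasting (log2 -4.02, SE 0.43). Slc7a8 (chr14:54722209-54781946) had 1.77, 1.4 and 0.596 FPKM in cold plus fasting and 69.3, 41.8 and 103 FPKM in RT fasting, the largest fall by the rule for named genes (log2 -4.95, SE 0.27, adjusted p = 5.83e-12). Trp53inp1, a p53 target gene, fell by 3.46 and Mycl, a MYC family gene, by 3.45.

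Chaperone genes and cold-inducible RNA-binding proteins moved against each other. In the heat shock and cold shock list 11 of 15 tested genes rose and 3 fell, with a median of 0.90, against 8 and 3 with the run covariate and 12 and 2 in BKO mice. Hsph1 had 45.2, 42.5 and 51.8 FPKM in cold plus fasting and 4.31, 7.02 and 5.56 FPKM in RT fasting (log2 2.86, SE 0.31, adjusted p = 1.08e-07, limma). Hsp90aa1 rose by 1.66 and Cryab, a small heat shock protein gene, by 1.73. Serpinh1, the collagen chaperone gene of the matrix list, had 181, 129 and 212 FPKM in cold plus fasting and 23.3, 26.5 and 18.3 FPKM in RT fasting (log2 2.87, SE 0.17). Cirbp and Rbm3, which encode the cold-inducible RNA-binding proteins of the list, fell. Cirbp had 11, 14.9 and 9.28 FPKM in cold plus fasting and 50.7, 37.2 and 42.9 FPKM in RT fasting (log2 -1.82, SE 0.19), and Rbm3 fell by 0.89. Of the 7 genes whose promoters held GAANNTTC, Bag3 fell by 0.53 and the other 6 rose by 0.58 to 2.86. The chaperone gene of the endoplasmic reticulum Hspa5 (log2 -0.13, adjusted p = 0.388) and the stress factor gene Ddit3 (log2 0.38, adjusted p = 0.216) did not pass. Hspa5 was called lower with quantile normalization (log2 -0.27, adjusted p = 0.0328) and with equal FPKM sums (log2 -0.27, adjusted p = 0.029).

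The 2 translation systems differed in direction. Of 30 tested genes of the mitochondrial ribosome and its factors 25 rose and none fell, with a median of 0.53, against 18 rises with the run covariate and 24 in BKO mice. Mrps27, a small subunit protein gene, had 49.4, 47.2 and 56.2 FPKM in cold plus fasting and 21.2, 17 and 16.4 FPKM in RT fasting (log2 1.44, SE 0.10, adjusted p = 2.4e-10, limma). Of 39 tested cytosolic ribosomal and elongation factor genes 33 fell and 1 rose, with a median of -0.45. Rps18 had 49.3, 45.7 and 49.3 FPKM in cold plus fasting and 77.6, 73.8 and 91.1 FPKM in RT fasting (log2 -0.73, SE 0.13), and Rpl5 was the one that rose, by 0.65. The falls numbered 19 with the run covariate and 26 in BKO mice. Both families have processed pseudogenes or close copies that can share reads. Nuclear genes of the respiratory chain showed 22 rises and no fall among 50, with a median of 0.21. The 44% that rose compare with 26.9% of all genes, and the counts were 15 rises with the run covariate and 13 rises and 8 falls under quantile normalization.

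Heme genes were led by uptake and the first step of synthesis. Tfrc, the transferrin receptor gene, had 16.9, 21.6 and 18.4 FPKM in cold plus fasting and 3.35, 4.31 and 2.29 FPKM in RT fasting (log2 2.23, SE 0.31, adjusted p = 2.8e-06, limma), and Alas1, of the first enzyme, rose by 1.52. Of 13 tested heme genes 8 rose and 3 fell, against 8 and 2 both with the run covariate and in BKO mice. Mb, which encodes myoglobin (chr15:77015487-77050670), had 61.6, 57.1 and 24.7 FPKM in cold plus fasting and 2.62, 4.80 and 3.39 FPKM in RT fasting (log2 3.33, SE 0.32). The summed FPKM of 15 skeletal muscle markers was 82.0, 89.6 and 92.0 in cold plus fasting and 82.9, 18 and 17.8 in RT fasting. The RT fasting library with the high muscle sum, replicate 1, had the lowest Mb of its group. Of 10 tested muscle markers 1 rose, the myosin light chain gene Myl1, around a median of 1.61. With the run covariate all 10 were called higher, around a median of 3.87. Myh1, too low to test, had 0.0274 FPKM in FF cold replicate 1, which helps set the run term, and 0.465 to 0.74 in the rest of that group. It had 0.00464 FPKM in FF RT fed replicate 3, against 0.0843 and 0.498. Myh2 and Ttn were also lowest in both libraries, while Myh7 was not in FF cold. The part of these libraries in the 10 calls, and of muscle RNA in the Mb result, was not tested.

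Large rises outside these groups included noncoding RNAs and genes of other functions. The long noncoding RNA 2310069B03Rik (chr6:82877864-82881853) had 39.9, 38.7 and 30.4 FPKM in cold plus fasting and 1.63, 0.934 and 0.615 FPKM in RT fasting, the largest rise by the rule (log2 4.20, SE 0.29, adjusted p = 1.41e-10, limma). Ttc25 (chr11:100545607-100572568), which lies beside Acly and encodes a ciliary protein, rose by 3.81. The sorting receptor gene Sorl1 rose by 3.20, the cell cycle factor gene E2f2 by 3.13, and the antisense RNA Gm15241, which overlaps Adgrg2, by 3.05. Bhlhe40, a clock repressor gene, rose by 2.85, while the clock gene Nr1d1 did not pass (log2 0.17, adjusted p = 0.69). Snora28, a small nucleolar RNA, is listed at 0 in the 3 cold plus fasting libraries and at 19.6, 15.7 and 20.8 FPKM in RT fasting; short RNAs are poorly measured in FPKM.

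Markers of other cell types changed in part. In bulk tissue, fewer cells of a type and less RNA per cell cannot be told apart. Summed macrophage markers were 189, 226 and 204 FPKM in cold plus fasting and 225, 226 and 254 FPKM in RT fasting, and endothelial markers (12 genes) 438, 547 and 472 FPKM and 654, 477 and 577 FPKM. Of the tested markers 2 of 12 macrophage genes fell and none rose, and 3 of 12 endothelial genes rose and 3 fell. Erythroid markers were 450, 547 and 523 FPKM in cold plus fasting and 244, 226 and 266 FPKM in RT fasting, with no overlap, and 4 of 5 tested members rose, among them the near-identical Hba-a1 and Hba-a2. None of the 5 passed with the run covariate, and in BKO mice all 5 rose. Lymphocyte markers were 19.6, 34.4 and 14.3 FPKM in cold plus fasting and 4.34, 4.54 and 4.96 FPKM in RT fasting. Ighm, the immunoglobulin M chain gene, was the only one of them tested, with 18.8, 32.3 and 12.8 FPKM in cold plus fasting and 2.40, 2.39 and 2.76 FPKM in RT fasting (log2 2.57, SE 0.33, adjusted p = 9.34e-07, limma). Ighm made up most of each lymphocyte sum. The other lymphocyte markers were each under 1 FPKM in all 6 libraries, and not all of them were higher in cold plus fasting. White adipocyte markers were 68.0, 90.1 and 84.0 FPKM against 64.4, 51.1 and 55.9 FPKM in RT fasting. None of these 5 lists had a marker at 0 in all 6 libraries, while 2 of 8 neutrophil and mast cell markers and 1 of 8 Schwann cell and neuron markers were at 0 in all of them. The smooth muscle list had 2 rises and 1 fall among 7 tested genes, the fibroblast list 2 and 1 among 8, the white adipocyte list 4 and 2 among 9, and the brown adipocyte list 3 and 2 among 12. The neutrophil and mast cell list had 1 rise among 3 tested genes, and the Schwann cell and neuron list 1 rise and 1 fall among 4. The part of other cell types in the lipid, glucose and stress results was not tested.

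Matrix genes were mostly higher in cold plus fasting, in contrast to the setting without fasting. Of 23 tested genes 12 rose and 5 fell under fasting, against 1 rise and 13 falls between FF cold and FF RT fed, and the responses differed upward in 13 members and downward in 2. Under fasting 9 rose and 2 fell with the run covariate. Col15a1, a basement membrane collagen gene, had 6.13, 7.56 and 7.09 FPKM in cold plus fasting and 1.46, 3.21 and 1.56 FPKM in RT fasting (log2 1.41, SE 0.17, adjusted p = 5.94e-07, limma), and without fasting it fell by 0.72. Sparc, a collagen-binding protein gene, rose by 0.75. Timp4, an inhibitor of matrix proteases, and Dcn, which encodes decorin, fell by 1.49 and 0.84.

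Amino acid and stress lists were divided. Among genes of other amino acid catabolism 5 of 16 rose and 7 fell. Got1, a cytosolic aspartate transaminase gene, had 41.4, 31.2 and 40.8 FPKM in cold plus fasting and 12.6, 11.5 and 12.3 FPKM in RT fasting (log2 1.55, SE 0.17, adjusted p = 1.46e-07, limma), while Cdo1, of cysteine breakdown, fell by 1.32. In the integrated stress response and serine synthesis list 5 of 20 rose and 7 fell. Atf5, a mitochondrial stress factor gene, rose by 2.07 and the serine synthesis gene Psph by 1.94, while Sesn2, a nutrient sensor gene, fell by 1.91 and Trib3, a pseudokinase gene of the same response, by 1.56. In the Nrf2 list 3 of 17 rose and 7 fell, with Sod2, which encodes mitochondrial superoxide dismutase, up by 0.95 and Gpx3, a secreted peroxidase gene, down by 1.73.

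The remaining lists moved little or both ways. Branched-chain amino acid genes had 10 rises and 3 falls among 22, peroxisomal genes 12 and 6 among 25, and creatine genes 2 and 1 among 5. Proteasome genes had 6 rises and 9 falls among 33, endoplasmic reticulum stress genes 4 and 7 among 25, clock genes 4 and 5 among 20, and interferon-stimulated genes 2 and 2 among 12. Their called shares lay between 33.3% and 72.0%, around the 53.9% of all genes. Of 30 cell cycle genes only 10 reached the level for testing, with 3 rises and 6 falls. With the run covariate the branched-chain list had 9 rises and 3 falls, the peroxisomal list 8 and 4, the creatine list 3 and 1, and the proteasome list 0 and 3. In the same fit the endoplasmic reticulum list had 4 and 4, the clock list 2 and 2, the interferon list 2 and 0, and the cell cycle list 2 and 5. The integrated stress response list had 4 rises and 6 falls there, the Nrf2 list 2 and 5, and the list of other amino acid catabolism 4 and 5.

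The same contrast in BKO mice shared no library with this one. There 5520 of 11880 genes (46.5%) passed, 2807 (23.6%) higher and 2713 (22.8%) lower. Of the FF calls 4459 (37.5% of all genes) were called in the same direction in BKO mice, which is 69.6% of the FF calls and 80.8% of the BKO calls, and 12 were called in the opposite direction. Across genes the 2 sets of log2 differences correlated with r = 0.878 and rho = 0.861 over 11880 genes, which are not independent replicates. Calls in the same direction in FF mice, with the run covariate and in BKO mice numbered 3021 (25.4%), 1679 higher and 1342 lower. Scd2, Slc2a5, Acsl5, Slc7a8, Hmox1 and Mycl were among them.

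The difference between the genotypes' responses was itself tested. It passed for 60 genes (0.505%), 30 (0.253%) with a higher and 30 (0.253%) with a lower log2 difference in FF mice, and for 5 (0.0421%) with the run covariate. The count varied from 13 without FF RT fasting replicate 3 to 285 without FF RT fasting replicate 2. Selenbp1, a methanethiol oxidase gene, averaged 27.5 ± 4.0 FPKM in FF cold plus fasting and 114 ± 22 in FF RT fasting, and 20.2 ± 3.1 in BKO cold plus fasting and 25.8 ± 3.9 in BKO RT fasting (SD, n = 3 each). The FF response was lower by 1.67 (SE 0.21, adjusted p = 0.000585, limma; 0.0495 with the run covariate). Tango2, a gene linked to mitochondrial and lipid metabolism, responded with a log2 difference of -1.09 in FF mice and 0.28 in BKO mice, a difference of -1.37 (adjusted p = 0.000827; 0.0495 with the run covariate). Plin1 averaged 613 ± 23 FPKM in FF cold plus fasting and 254 ± 97 in FF RT fasting, and 589 ± 17 in BKO cold plus fasting and 541 ± 90 in BKO RT fasting. Its difference of 1.20 passed (adjusted p = 0.0177, limma), but not with the run covariate (adjusted p = 0.258).

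**Figure D3:**
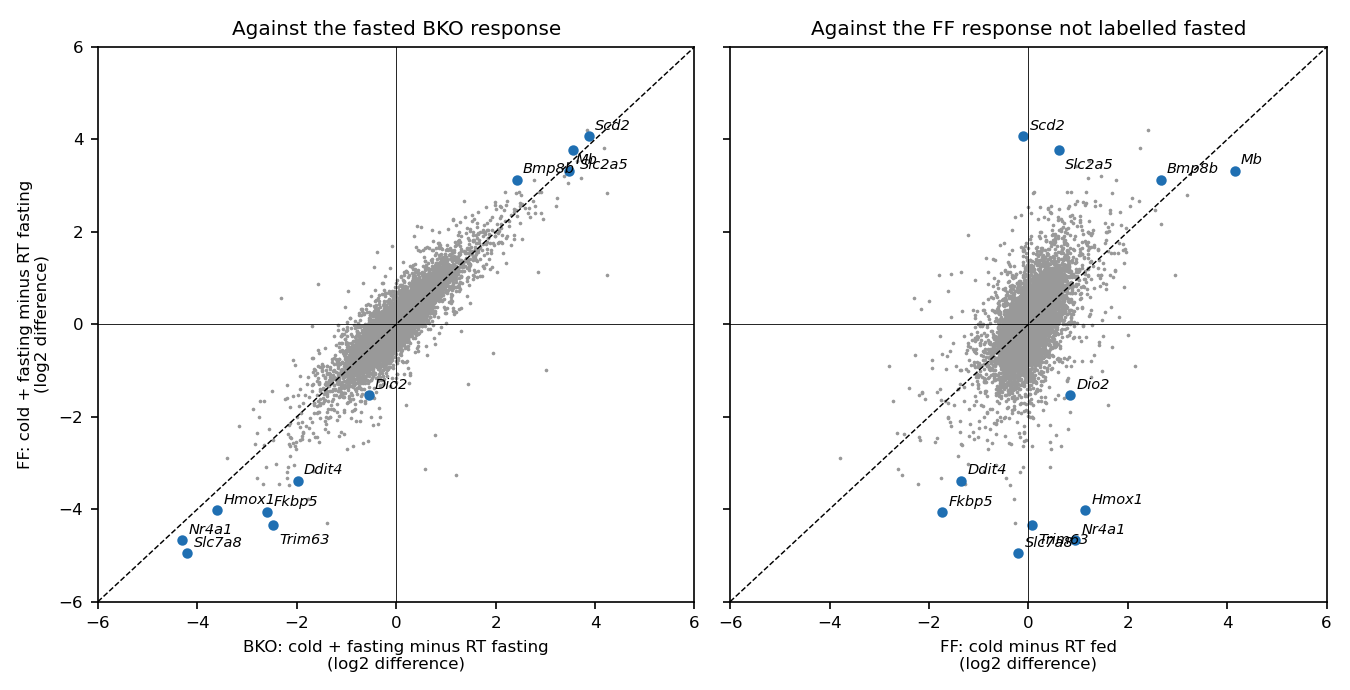
Log2 difference between cold plus fasting and RT fasting in FF mice (vertical) for each tested gene, against the same contrast in BKO mice (left) and against FF cold minus RT fed (right). Points are genes, with named genes in blue and the dashed line marking equality. Scd2 and Slc2a5 lie near the line on the left (4.07 and 3.76 in FF mice, 3.87 and 3.56 in BKO mice) and away from it on the right (-0.10 and 0.61), while Mb and Bmp8b lie to the right of zero in both.

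The cold response of FF mice not labelled as fasted was compared next. Between FF cold and FF RT fed 2866 of 11879 genes (24.1%) passed, 1636 (13.8%) higher and 1230 (10.4%) lower. Of the 6406 calls under fasting, 1966 (30.7%) were called in the same direction there, which is 68.6% of the calls without fasting, and 122 in the opposite direction. A test of the difference of the 2 responses passed for 2708 genes (22.8%), 1365 higher and 1343 lower under fasting, and for 1216 (10.2%) with the run covariate. This test is by construction also the test of whether fasting differed in effect between cold and RT.

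Lipogenic genes responded more under fasting. In that list 14 of the 20 tested members had a higher response under fasting and none a lower one. Scd2 had a log2 difference of 4.07 under fasting and -0.10 without it, a difference of 4.17 (SE 0.46, adjusted p = 1.84e-06, limma). It averaged 124 ± 47 FPKM in FF cold plus fasting and 6.24 ± 1.81 in FF RT fasting, and 135 ± 15 in FF cold and 152 ± 64 in FF RT fed (SD, n = 3, 3, 4 and 3). RT fasting was the group that was low, and the other 3 groups overlapped. Acly (difference 2.74), Slc2a5 (3.15), Serpinh1 (2.76) and Ptger3, a prostaglandin receptor gene (3.15), also had higher responses under fasting. Ptger3 fell by 1.21 without fasting and rose by 1.94 under it. Plin1 and Adrb3 had differences of 1.21 and 1.83 (adjusted p = 0.000539 and 0.00235), and Adrb3's was 1.42 with the run covariate (adjusted p = 0.0838).

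Several falls differed between the settings too. Trim63 averaged 0.10 ± 0.03 FPKM in FF cold plus fasting and 27.9 ± 25.9 in FF RT fasting, and 0.109 ± 0.0996 in FF cold and 0.0536 ± 0.0636 in FF RT fed. Its difference of responses was -4.42 (SE 0.53, adjusted p = 4.81e-06, limma). Hmox1 fell by 4.02 under fasting and rose by 1.14 without it (difference -5.16, adjusted p = 3.12e-06), and Nr4a1 had a difference of -5.60 (SE 1.39, adjusted p = 0.00536). Dio2 fell under fasting, against a log2 difference of 0.84 without it (adjusted p = 0.102), and the responses differed by -2.38 (adjusted p = 0.0029, limma; 0.00678 with the run covariate).

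Some genes responded in both settings. Mb averaged 47.8 ± 20.2 FPKM in FF cold plus fasting and 3.61 ± 1.11 in FF RT fasting, and 53.6 ± 9.4 in FF cold and 2.09 ± 0.69 in FF RT fed. The 2 responses differed by -0.83 (SE 0.43, adjusted p = 0.177, limma). Bmp8b rose by 3.13 and 2.66, Apoe fell by 2.44 and 2.21 and Irf4 by 2.35 and 2.64. Elovl3 rose by 2.18 and 2.67, and Edn1 by 1.26 and 1.31. In the cytosolic ribosomal list 33 genes fell under fasting and 23 without it, and the responses differed in no member.

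**Figure D4:**
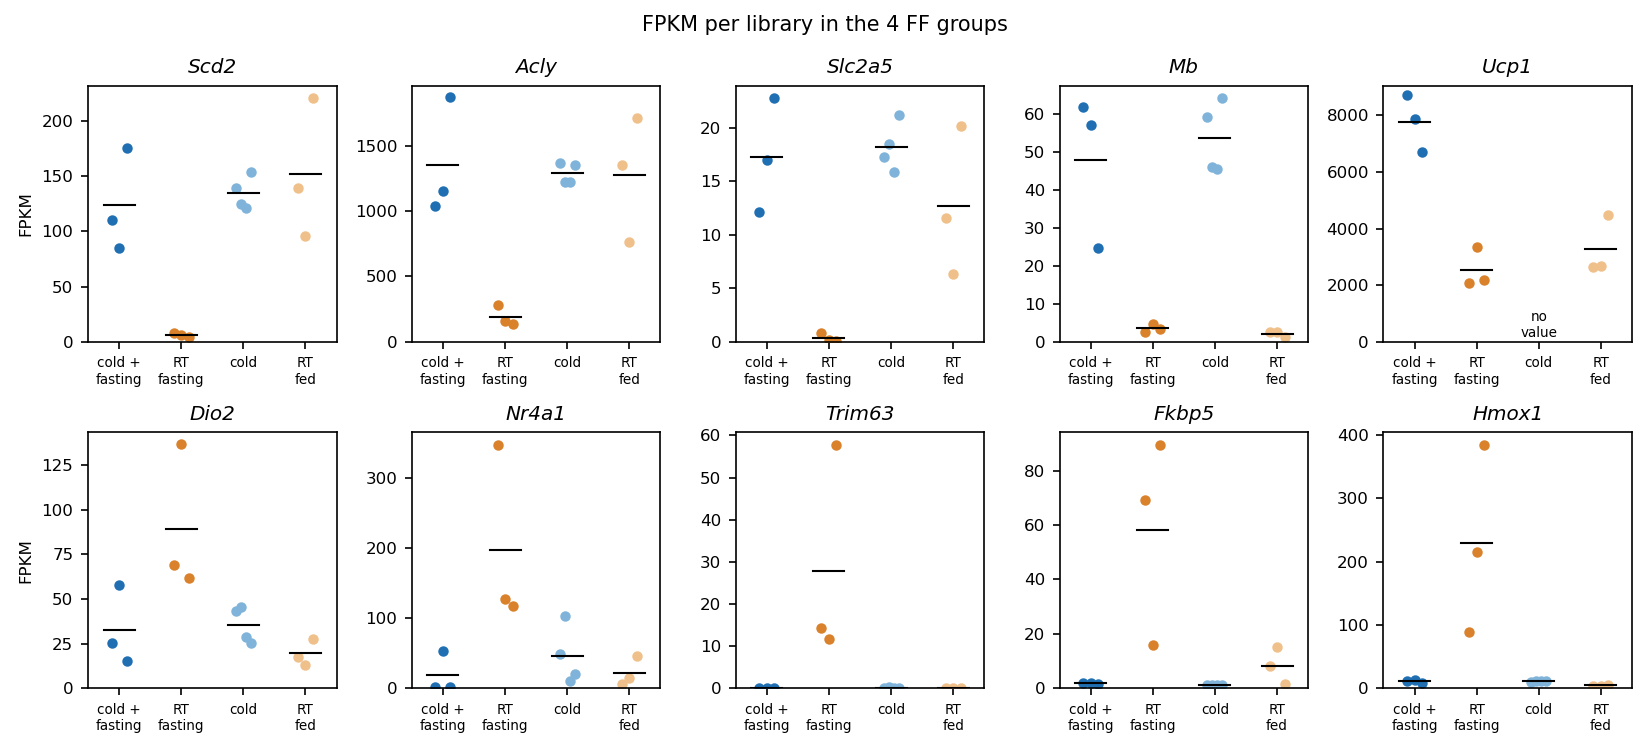
FPKM per library of 10 genes in the 4 FF groups, with cold plus fasting left of RT fasting and cold left of RT fed; black lines are means. Scd2, Acly and Slc2a5 are low in RT fasting alone, Dio2, Nr4a1, Trim63, Fkbp5 and Hmox1 are highest there, and Mb is high in both cold groups (means 47.8 and 53.6 FPKM). Ucp1 has no value in FF cold.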

How the data were processed

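RNA from brown adipose tissue was sequenced on an Illumina instrument, per the labels' protocols. The submitters' processing notes name STAR, Cufflinks, Cuffdiff and the mm10 build, without versions, and the authors deposited 1 table of FPKM per gene and library. Strandedness, temperature and durations are not given in the sources used here. Values were taken as deposited. In 33 genes, every value of 0 was treated as a failed estimate and set to missing, because the smallest other value over the 26 libraries was at least 100 FPKM. Many of these are small RNA genes listed at 0 in 25 of the 26 libraries.

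Genes with at least 1 FPKM in 3 of the 6 libraries were tested on log2(FPKM + 1), which understates changes of low genes, with limma 3.58.1 (R 4.3.3), a trend on mean level, 8 group means over all 26 libraries and Benjamini-Hochberg adjustment over all tested genes, 2-sided, at 0.05. The fit was tested on simulated data with known changes. Alternatives were a pseudocount of 0.1, no filter, a mean of at least 5 FPKM, 3 scalings, number run as a covariate, array weights, zeros as deposited, the contrast's libraries alone, and leaving out each library. The 2 contrasts of fasting within FF mice were added after seeing the data.

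Named genes were the 12 largest rises and falls that passed, had a mean of at least 2 FPKM in the higher group and did not overlap; the 6 largest each way that also passed with the covariate and in BKO mice; the 5 largest each way for each difference of responses; up to 4 per list and direction; and 34 chosen by name. Myl1, Pfkm, Fads1, Fads2 and heat shock members with a motif were named after their values were seen. The comparison and its 46 gene lists were chosen with earlier results of these data known. Of 140 genes followed through every alternative, 61 overlap a gene on the opposite strand in GENCODE M21, whose coordinates are those printed. Promoters and motifs were read from RefSeq. Some genes covered by these rules are not reported here.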

Additional observations from a re-analysis of the deposited data

Results flagged for a closer look

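The cold response under fasting differed between FF and BKO mice in 60 genes and between fasted and unfasted FF mice in 2708 genes, each by limma's test of the difference itself. The genes below had the largest differences of log2 responses among those that passed.

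Between FF and BKO mice, the FF response was higher by 1.62 for Irs3, an insulin receptor substrate gene, 1.30 for the matrix gene Prelp, 1.27 for the lipid droplet gene Cideb, 1.20 for Plin1 and 1.13 for Cpn2. The FF response differed by -4.46 for the ribosomal RNA gene n-R5-8s1, by -1.78 for Tspan4, by -1.67 for Selenbp1, by -1.49 for Tnfrsf12a, which encodes the TWEAK receptor, and by -1.37 for Tango2. Cideb averaged 3.85 FPKM in FF cold plus fasting and 1.34 FPKM in FF RT fasting, and 3.10 FPKM in BKO cold plus fasting and 3.77 FPKM in BKO RT fasting.

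Between fasted and unfasted FF mice, the fasted response was higher by 4.17 for Scd2, 3.15 for Slc2a5, 3.15 for Ptger3, 2.76 for Serpinh1 and 2.74 for Acly. It differed by -5.60 for Nr4a1, by -5.16 for Hmox1, by -4.75 for Slc7a8, by -4.42 for Trim63 and by -4.02 for Snora28, whose zeros make its size uncertain.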

How the results depend on the processing

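The count of 6406 changed genes became 3662 with number run as a covariate and 5444 to 5893 without one library, and lay between 4453 and 7597 under the other alternatives. Among 140 genes followed, 8 calls were lost with the covariate (among them Hk2, Pdk4, Angptl4, Elovl3, Adrb1, Irs2 and Foxo1), 6 were gained with equal FPKM sums, and none reversed in any alternative. The count of 60 genes that differed between FF and BKO responses became 37 with a mean of at least 5 FPKM, 113 with quantile normalization, 5 with the run covariate, 228 with array weights and 3 with the contrast's libraries alone. Without one library it ranged from 13 to 285. It was 285 without FF RT fasting replicate 2 and 13 without replicate 3, 30, 36 and 34 without FF cold plus fasting replicates 1, 2 and 3, 27 and 33 without BKO cold plus fasting replicates 2 and 3, and 126 and 20 without BKO RT fasting replicates 1 and 3. The count of 2708 genes that differed between fasted and unfasted FF responses became 1216 with the run covariate and 2027 to 2666 without one library. The causes were not tested. No paired analysis was possible because the labels give no replicate numbers shared between groups. Depth is unknown, so low values carry an unknown counting error.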
